A study of Mus musculus with 15 samples.

Results

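The change that separates lung tumours from wild type lung was set against the change already present in mutant lung before tumours had begun. RNA was hybridised to Affymetrix arrays of 1 colour, 3 per group. The older set held parts of whole lung of wild type mice at 12 months and parts of single lung tumours of mutant mice at 12 months. The other set, the younger, held parts of whole lung of wild type and of mutant mice at 7 months, an age that the series design places ahead of tumour initiation. The mutant genotype is the same at both ages and includes a deletion of Smad4 (Smad4d/d). Smad4 joins the receptor-activated SMAD proteins that carry TGF-beta and BMP signals to the nucleus. All mice were untreated and of mixed background. Which cells carry the deletion, and whether an array holds 1 animal, the sources used here do not say. Effects are therefore those of the whole genotype, and p-values measure the spread between these arrays, which may be technical in part. These groups make up 12 of the 15 arrays of the series; the other 3 arrays, a further 7-month group, enter only the spread estimate and the choice between probe sets.

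For each of 18193 genes, read through 1 probe set, 3 quantities were taken on the log2(intensity + 16) scale. The tumour effect is tumour minus wild type lung at 12 months. The early effect is mutant minus wild type lung at 7 months. The difference of effects is the tumour effect minus the early effect: above 0 the tumour effect is the higher, below 0 the lower. A gene was called where limma's adjusted p (Benjamini-Hochberg over all 18193 genes, 2-sided) was under 0.05. Unless another fit is named, every adjusted p below comes from this 1 fit over all genes, and ± gives its standard error. Month of age, a piece of tumour against a piece of whole lung, and the set the arrays belong to differ together, so their parts in the difference cannot be told apart. Readings of Xist and Y-linked genes, given below, also differ between these groups, and the part of sex was not tested. In such bulk samples fewer cells of a type and less RNA per cell also cannot be told apart.

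As background, the conducting airways of the lung are lined by ciliated, club, mucous and basal cells, and the alveoli by flat type 1 and surfactant-making type 2 cells. Basal cells and squamous epithelium carry the keratins Krt5, Krt14 and Krt15 and many desmosomes, the plaques that rivet neighbouring cells together. Resident alveolar macrophages clear surfactant lipid and depend on the nuclear receptor Pparg. Sterol synthesis genes are switched on together when cells sense too little cholesterol.

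Several properties of the arrays touch the results. Xist, which coats the inactive X in females, read 6786 and 6917 on wild type 12-month arrays 1 and 3 and 69.8 on array 2, while the tumours read 64.1 to 237 and showed Y-linked genes. Of the 6 younger arrays 5 showed both Xist (4516 to 4959) and Y-linked genes, and wild type array 3 showed Y-linked genes with Xist at 48.1. On those 5 the Y-linked Eif2s3y read 727 to 923, against 1504 to 1908 on the Xist-low arrays of both ages. These 5 arrays thus held transcripts of both sexes, and the labels do not say whether RNA was pooled. Liver transcripts stood out on wild type 12-month array 1 and wild type 7-month array 2, where Alb read 9591 and 6121 against 44.3 to 1157 on the other 10 arrays. The 18S ribosomal control probe sets averaged 1121 to 2036 in tumours and 5492 to 8084 in the other groups. Tumour array 2 lay nearer to wild type lung than the other tumours in alveolar genes: Ager, an alveolar type 1 marker, read 5377, 7257 and 2716 in the 3 tumours and 8356 to 8804 in wild type lung of that age. Of 124 called genes checked array by array, 55 were called without each of the 12 arrays in turn. Of these 55, 17 were also called without both Xist-high arrays, which leaves 1 wild type array at 12 months: Alox15, Arnt2, Asns, Ccl3, Cxcl1, Dhcr7, Dus1l, Krt15, Krt18, Krt5, Msln, Muc16, Pax9, Poln, Prp2, Slc7a5 and Ubd. The other 38 kept their sign there and lost the call. The fits without both liver-high arrays were chosen after the data were seen. Genes described below belong to the 55 unless losses are stated.

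The difference was called higher for 319 genes (1.75% of those tested) and lower for 257 (1.41%). At least 2-fold differences made up 181 (0.995% of all genes) and 95 (0.522%) of these. Over all genes the median difference was 0.0028, and the array medians ranged from 90.9 to 99.5. For comparison, 2735 genes were called higher (15%) and 2191 lower (12%) in tumours against wild type, and 905 higher (4.97%) and 104 lower (0.572%) in mutant lung at 7 months. Counts of list members given below stand against these shares of all genes. The lists and their members were chosen with earlier results of these data known. A higher share in a list is thus a description and no test. Most called differences were those of genes called at 12 months alone: 251 of the 319 and 221 of the 257. Another 52 of the 319 were called higher at both ages, and 24 of the 257 were called at 7 months alone. Without tumour array 2 the counts rose to 857 and 973, and all 319 and 257 genes were among them. Without mutant 7-month array 1, wild type 7-month array 1 or 3, wild type 12-month array 3 or tumour array 3 they fell to between 162 and 206 higher and between 108 and 131 lower. Without mutant 7-month array 2 or 3, 137 and 159 genes were called lower.

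**Figure D1:**
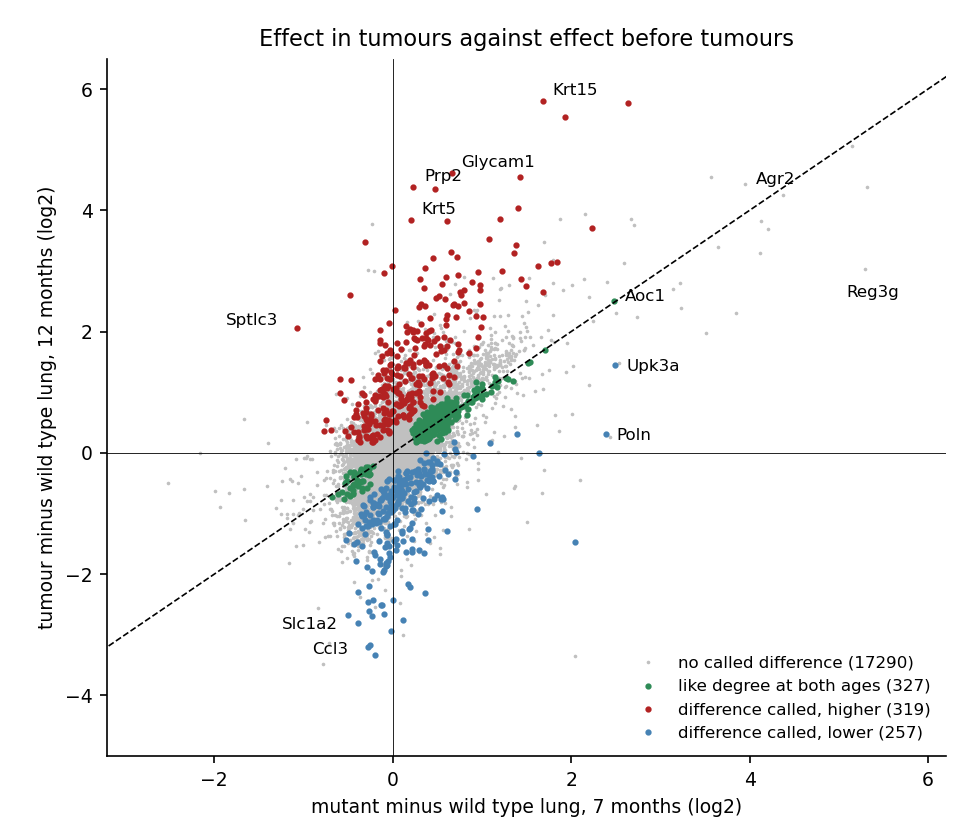
Each point is 1 of 18193 genes, with the early effect (mutant minus wild type lung at 7 months, log2) on the x axis and the tumour effect (tumour minus wild type lung at 12 months, log2) on the y axis. Genes called for the difference are red (319 higher) and blue (257 lower), genes changed to a like degree at both ages are green (327), and the dashed line marks equal effects.

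The early effect and the tumour effect share no arrays, and their overlap was large. Of the 905 genes called higher at 7 months, 770 (85.1%) were also called higher in tumours, where they made up 28.2% of the 2735. Of the 104 called lower at 7 months, 63 (60.6%) were called lower in tumours, 2.88% of the 2191. Across genes the 2 effects correlated with Pearson's r = 0.591, given as a description since genes are not independent replicates. A like degree of change was scored where a gene was called in the same direction at both ages and the 95% interval of its difference, not adjusted for the number of genes, lay within a 1.5-fold change either way. This held for 277 genes that rose (1.52%) and 50 that fell (0.275%), 327 in all (1.80%). Without mutant 7-month array 2 or wild type 7-month array 1 the total was 146 and 182.

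The difference of effects also equals a gap between the mutant samples (tumour minus mutant lung at 7 months) less a gap between the wild type lungs (12 minus 7 months). The 2 directions split differently. For the 319 higher genes the median mutant gap was 0.83 and the median wild type gap -0.20, and the wild type gap made up more than 50% of the difference in 69 genes (21.6%). For the 257 lower genes the medians were -0.25 and 0.66, and the wild type gap made up more than 50% in 171 genes (66.5%). Most lower differences thus lay in genes that read higher in wild type lung at 12 than at 7 months and less different between tumour and young mutant lung. This is a description of the called genes, which were picked by the sum of these parts.

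**Figure D2:**
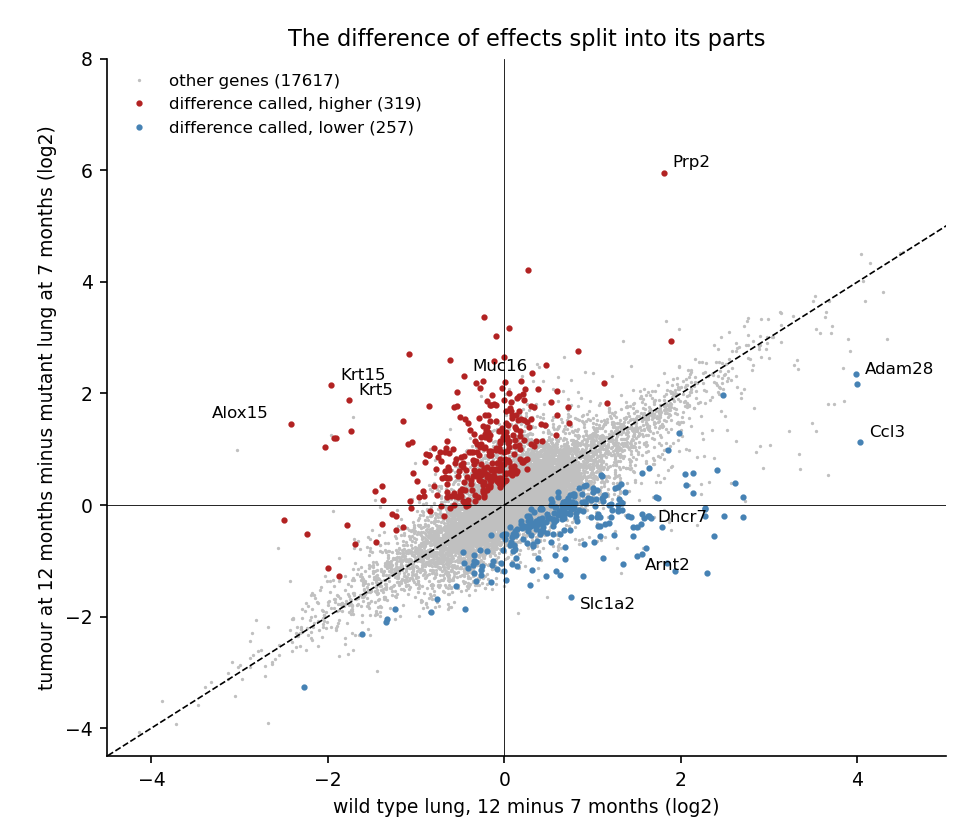
Each point is 1 gene, with wild type lung at 12 minus 7 months (log2) on the x axis and tumour at 12 months minus mutant lung at 7 months (log2) on the y axis. The distance above or below the dashed line is the difference of effects: the 319 higher genes (red) lie mostly near the middle of the x axis, and the 257 lower genes (blue) mostly to its right.

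Squamous and basal epithelial genes, a list chosen with earlier results of these data known, held more called differences than genes at large. Of 24 measured members 10 were called higher and 0 lower, against 1.75% and 1.41% of all genes, and the median difference of the list was 0.80, against 0.0028 over all genes. Its median tumour effect was 1.14 and its median early effect 0.35. In Krt15, the basal cell keratin with the largest of these differences, tumours read 1568, 1248 and 3319 against 10.2, 28.6 and 17.1 in wild type lung of that age. At 7 months Krt15 read 276, 570.3 and 434 in mutant and 109.8, 108 and 131 in wild type lung. Groups did not overlap at either age and the tumours lay above every other array, with a difference of 4.11 ± 0.47 (adjusted p = 0.00152).

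Krt5, the partner keratin of basal cells, read 660.2, 364 and 1249 in tumours and 23.6, 37.7 and 35.6 in wild type lung at 12 months. Its 7-month values were 131, 154 and 244 in mutant and 135, 152 and 151 in wild type lung. Mutant and wild type lungs overlapped at 7 months and the tumours lay above every other array, with a difference of 3.64 ± 0.47 (adjusted p = 0.00306). In both keratins wild type lung read lower at 12 than at 7 months, and this gap made up 47.8% of the difference in Krt15 and 48.3% in Krt5. It exceeded 50% in 1 of the 10 called members, Fat2. Pkp1 encodes plakophilin 1, a desmosome protein of stratified epithelium, and read 116, 58.4 and 139 in tumours against 1.0 to 11.6 on the other 9 arrays. Its difference was 2.06 ± 0.33 (adjusted p = 0.00752), and the call was lost with a pseudocount of 1 in place of 16. Sfn, the 14-3-3 protein of squamous epithelium, read 223, 232 and 282 in tumours and 125, 109 and 98.0 in wild type lung. At 7 months its groups overlapped (75.9 to 109 in mutant and 82.2 to 109 in wild type lung), and the difference was 1.16 ± 0.19 (adjusted p = 0.00811).

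The other called members were Krt14, Krt17, Trp63, Serpinb5, Perp and Fat2. Trp63 encodes the transcription factor that maintains basal cells; its difference was 1.71 ± 0.40 (adjusted p = 0.0406). Each of these 6 lost the call when some single array was left out. The count of the list was then 4 without mutant 7-month array 2 or wild type 7-month array 3, and 5 without tumour array 3, wild type 12-month array 1 or 3 or wild type 7-month array 1. It was 5 without both arrays high in liver transcripts and 2 without both Xist-high arrays. Several markers of stratified and differentiating squamous epithelium were not called: Krt6a, Krt13, Sprr1a, Sprr3, Lypd3 and Ivl had differences between -0.10 and 0.25, with adjusted p from 0.819 to 0.978. Sox2, an airway and squamous lineage factor, had a difference of 0.70 ± 0.21 (adjusted p = 0.0929) and was called higher at both ages.

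**Figure D3:**
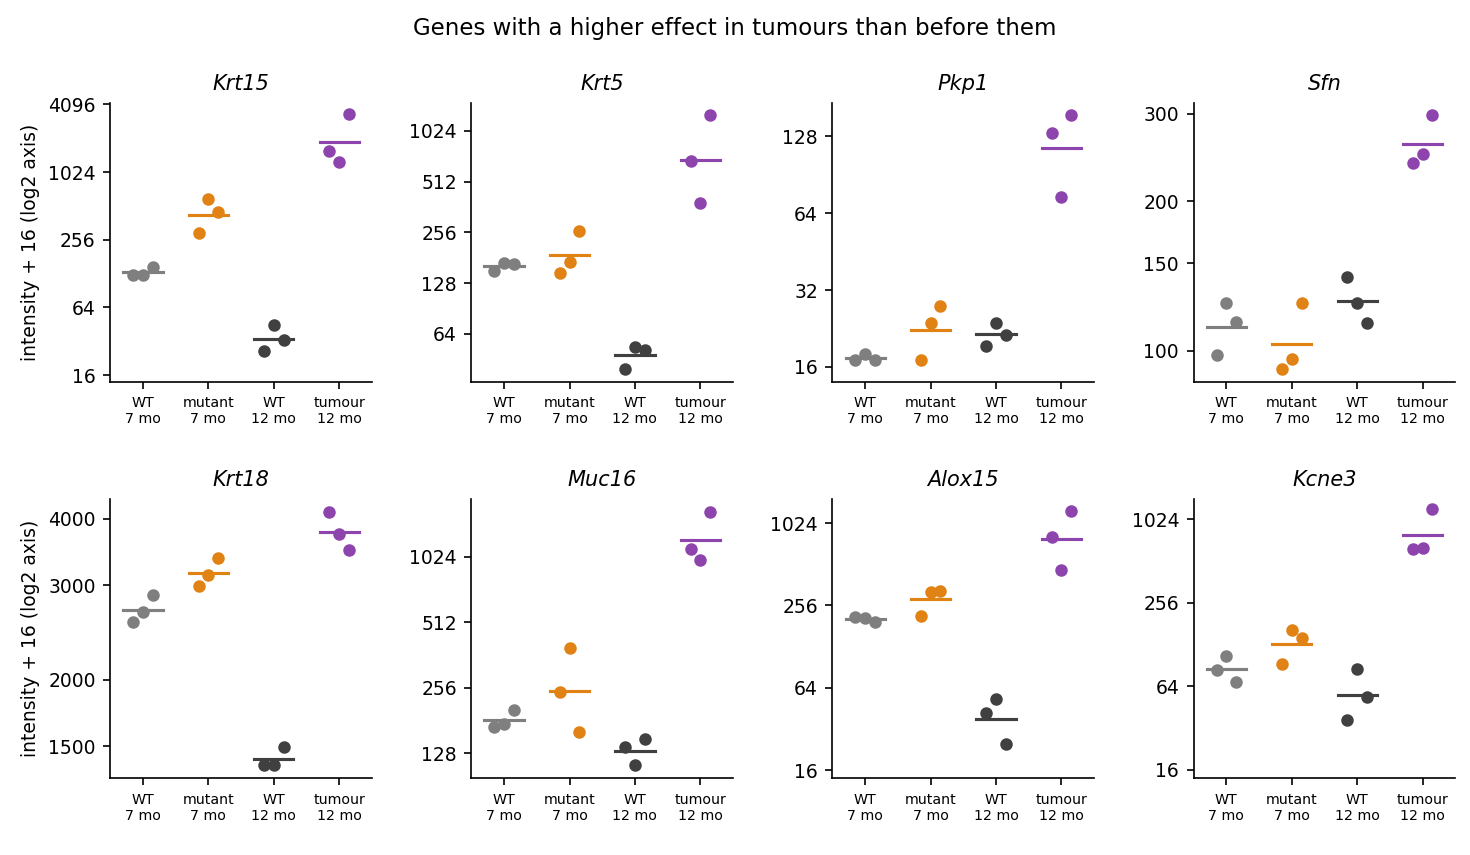
Intensity plus 16 (log2 axis, scaled for each gene) of 8 genes with a higher effect in tumours, with 1 point per array and a line at the mean of the log2 values of each group. In all 8 genes the 3 tumours lie above every other array, and in Krt15, Krt5, Krt18 and Alox15 wild type lung is lower at 12 than at 7 months.

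Keratins of simple epithelium and cell junction genes had smaller differences, most of them in the same direction. Of 26 members of the junction list 8 were called higher and 1 lower (1.75% and 1.41% of all genes), with a median difference of 0.47. Krt18 and Krt8 encode the keratin pair of simple epithelium. Krt18 read 4107, 3723 and 3480.4 in tumours and 1367, 1371 and 1484 in wild type lung, against 2979, 3117 and 3366 and 2545, 2659 and 2859 at 7 months. Groups did not overlap at either age, and the difference of 1.18 ± 0.11 (adjusted p = 0.000395) had the smallest adjusted p of the genes named here. Wild type lung at 12 months lay below all 7-month lungs, and that gap made up 78.4% of the difference. Krt8 read 8089.9, 6439 and 6487 in tumours, 2576, 2903 and 2939.8 in wild type lung, 4763, 4898 and 4946 in mutant lung and 3195, 3558 and 4029 in its 7-month wild type. The tumours stood clear of all other arrays, and the mutant lungs stood clear of their own wild type by less; the difference was 0.87 ± 0.15 (adjusted p = 0.00996).

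Grhl1, a grainyhead transcription factor of epithelial barriers, was called higher in tumours and read lower than wild type in young mutant lung, where it was not called. It read 299.8, 289 and 303 in tumours and 195, 216 and 143 in wild type lung at 12 months, then 304, 327 and 298 in mutant and 411, 364 and 414 in wild type lung at 7 months. Its groups did not overlap at either age, and the difference was 1.0 ± 0.18 (adjusted p = 0.0128). The wild type gap, with lower values at 12 months, came to 105.7% of that difference. No tumour read above the young wild type lungs. Cldn1, a claudin of tight junctions, was the member called lower. It read 165, 191 and 146 in tumours and 381, 395 and 349.9 in wild type lung, against overlapping values of 230.5 to 264 in mutant and 194 to 266 in wild type lung at 7 months. Its difference was -1.15 ± 0.18 (adjusted p = 0.00605), all 4 of its probe sets lay below 0, and their mean was not called. In a limma fit over all probe sets the others had differences of -0.39 to -0.06, none of them called. Epcam, Cldn7, Esrp1, Krt19 and Krt7 were called higher too, with differences of 0.48 to 0.95, and lost the call without some single array. The count of the list was 3 without mutant 7-month array 1 or wild type 7-month array 3, 4 without tumour array 3 or wild type 12-month array 3, 5 without mutant 7-month array 2, tumour array 1, wild type 12-month array 1 or wild type 7-month array 1, and 13 without tumour array 2. It was 3 without both arrays high in liver transcripts and 1 without both Xist-high arrays.

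Erbb2, the receptor tyrosine kinase in the series title, was among the genes with a larger effect in tumours. It read 317, 276 and 330.1 in tumours and 149, 166 and 187 in wild type lung of that age. The 7-month mutant values of 201, 193 and 179 overlapped the wild type values of 176, 166 and 185, and all 9 lungs lay below the tumours. The fold of tumours over wild type was 1.77, that of mutant over wild type lung 1.08, and their ratio 1.64. Of 19 ErbB receptors, ligands and inhibitors 2 were called higher and 0 lower; the other was Lrig1, an inhibitor of the receptors, at 0.55 ± 0.13 (adjusted p = 0.046), a call lost without 10 of the 12 arrays in turn. Elf3, an epithelial ETS transcription factor, was called higher at both ages, with a tumour effect of 1.91, an early effect of 1.35 and a difference that was not called (0.56 ± 0.24, adjusted p = 0.229). Errfi1, a feedback inhibitor of ErbB receptors, was called at neither age on the probe set used and had a difference of -0.37 ± 0.33 (adjusted p = 0.609). Its second probe set, in a limma fit over all probe sets, was called lower in tumours (-1.45, adjusted p = 0.000977) with a difference of -1.37 (adjusted p = 0.0642). Smad4 itself read 2965 to 3688 in tumours, 2664 to 2924 in wild type lung of that age, and 3166 to 3364 and 3163 to 3304 in mutant and wild type lung at 7 months. Its difference was 0.19 ± 0.11 (adjusted p = 0.378), and both effects lay above 0 on all 3 of its probe sets. In tumours against wild type it was called higher (0.22, adjusted p = 0.0482). The position of its probe sets against the deleted stretch is unknown here, so they do not check the genotype.

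Airway programmes were mostly called at both ages, and ciliated cell genes most often. Of 26 measured members 24 were called higher in tumours and 21 in mutant lung at 7 months, against 15% and 4.97% of all genes. For the difference 0 were called by limma in either direction, and the unadjusted p was under 0.05 in 6 of the 26. Their median tumour effect was 1.29, the early effect 0.94 and the difference 0.33. Foxj1, the master regulator of motile cilia, read 2587, 1785 and 2603 in tumours and 937, 1185 and 1089 in wild type lung. At 7 months it read 791, 809 and 697 and 279, 292 and 364, again with no overlap. Its difference was -0.17 ± 0.21 (adjusted p = 0.734).

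Mucous cell genes were less uniform. Of 25 measured members 16 were called higher in tumours and 14 at 7 months (15% and 4.97% of all genes). The difference was called higher for 4 and lower for 1 (1.75% and 1.41% of all genes). Agr2, which folds mucins in the endoplasmic reticulum, and the secreted mucin Muc5b were already raised early. Agr2 read 2993 to 3968 in tumours and 49.6 to 239.8 in wild type lung, then 651 to 991 and 21.0 to 48.5 at 7 months; the difference was 0.49 ± 0.57 (adjusted p = 0.711). Muc5b had a difference of -0.20 ± 0.56 (adjusted p = 0.899) and a 95% interval of -1.42 to 1.02, too wide to show like effects.

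Muc16, a membrane mucin of airway surface and mesothelium, was called higher in tumours and not at 7 months. It read 1099, 969.7 and 1637 in tumours and 119.9, 96.3 and 132 in wild type lung at 12 months. Mutant and wild type lungs overlapped at 7 months (143 to 373 and 152 to 185), and the difference was 2.77 ± 0.37 (adjusted p = 0.00361). Spdef, the transcription factor of goblet cells, read 132, 105 and 156 in tumours and 22.7, 33.5 and 18.3 in wild type lung. The mutant lungs at 42.4, 31.1 and 41.6 stood just above their wild type at 20.7, 30.0 and 19.7, and the difference was 1.39 ± 0.26 (adjusted p = 0.0164). The Spdef call was lost with a pseudocount of 1 and without both arrays high in liver transcripts. Ern2 and Gcnt3 were the other members called higher and lost the call without some single array, as did Muc1, called lower. The count of the list was 2 without mutant 7-month array 1 or 3, tumour array 3, wild type 12-month array 1 or wild type 7-month array 1 or 3. It was 1 without both arrays high in liver transcripts and 1 without both Xist-high arrays.

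Of 15 club cell genes 1 was called higher (Lypd2) and 2 lower (Upk3a and Hp) for the difference, and each lost the call without some single array. Reg3g, a secreted antibacterial lectin, read 13366, 14232 and 14013 in tumours and 759.8, 3094 and 2024 in wild type lung, against 7486, 10103 and 8849.6 and 89.1, 180.3 and 528 at 7 months. The groups did not overlap at either age; the difference of -2.26 ± 0.74 was not called (adjusted p = 0.121). Tumour values of Reg3g lay near the top of the scale, whose highest reading in the deposited values was 17030. Upk3a, a uroplakin of airway club cell subsets, was called higher at both ages and less so in tumours (difference -1.05 ± 0.23, adjusted p = 0.0275), a call lost without 8 of the 12 arrays in turn. Sftpc and Scgb1a1 lay near the top of the scale in every group, at 11518 to 13080.5 and 14428 to 16192 on all 12 arrays.

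**Figure D4:**
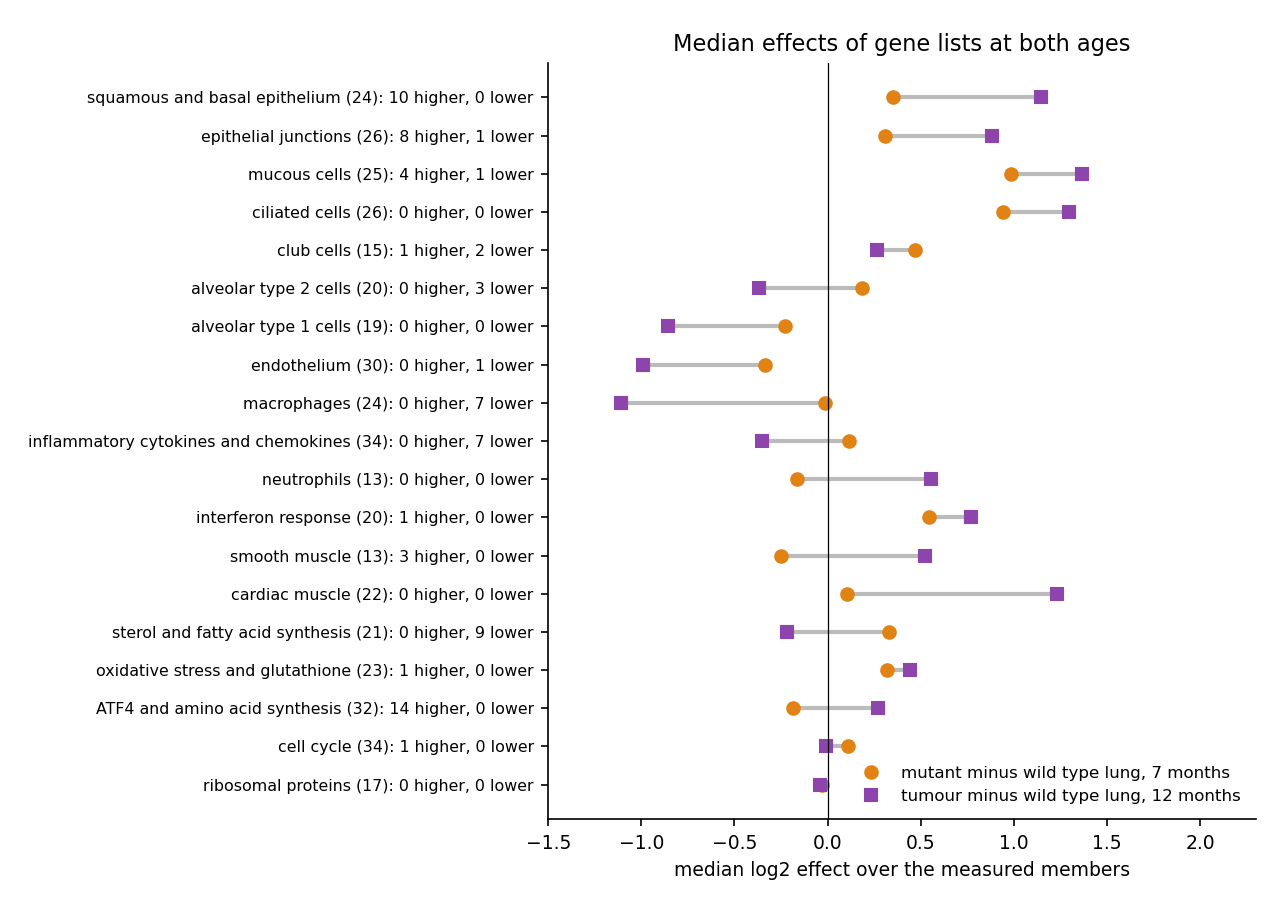
For 19 gene lists, the median log2 effect over the measured members at 7 months (orange circles) and at 12 months (purple squares), joined by a grey bar. Labels give the number of measured members and how many were called higher or lower for the difference: squamous, junction and cardiac genes lie further right in tumours, macrophage, endothelial and alveolar type 1 genes further left, and ribosomal proteins near 0 at both ages.

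The largest differences lay in genes of several other functions. Prp2, a proline-rich salivary protein, read 736, 1186 and 2796 in tumours, 30.9, 85.4 and 42.7 in wild type lung and below 10 on all 7-month arrays (difference 4.15 ± 0.54, adjusted p = 0.00335). Alox15, a lipoxygenase that oxidises arachidonic acid, read 797, 446 and 1247 in tumours and 25.9, 36.7 and 9.04 in wild type lung. At 7 months it read 199.5, 307 and 313 in mutant and 193, 192 and 178 in wild type lung, and the difference was 3.88 ± 0.46 (adjusted p = 0.00174). The tumours lay above all lungs, but the wild type gap, with lower values at 12 months, made up 62.4% of it.

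Pax9, a paired box factor of foregut epithelium, read 378, 273 and 488 in tumours and 9.05, 16.4 and 6.87 in wild type lung. The mutant lungs at 27.7, 54.5 and 58.9 also stood clear of their wild type at 13.8, 5.77 and 13.1, and the difference was 2.66 ± 0.34 (adjusted p = 0.00306). Six2, a homeobox factor of embryonic progenitors, read 149, 142 and 559 in tumours and 5.59, 11.6 and 2.31 in wild type lung, with overlapping 7-month lungs (19.6 to 24.9 in mutant and 24.0 to 38.3 in wild type). The difference was 3.79 ± 0.53 (adjusted p = 0.00405). Kcne3, a beta subunit of potassium channels, read 613, 623 and 1187 in tumours against 20.7, 69.8 and 37.5 in wild type lung. Its 7-month groups overlapped at 76.2 to 147 and 52.7 to 90.0, and the difference was 3.22 ± 0.45 (adjusted p = 0.00414). Atp6v1b1, a proton pump subunit of acid-secreting epithelial cells, read 226, 157 and 221 and 59.3, 55.8 and 45.7 at 12 months with a difference of 1.14 ± 0.20 (adjusted p = 0.0101).

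Ubd encodes FAT10, a ubiquitin-like protein induced by inflammatory cytokines. It read 407, 246 and 423 in tumours and 38.4, 23.8 and 20.5 in wild type lung, and its 7-month groups overlapped (124 to 185 in mutant and 121 to 204 in wild type lung), with a difference of 3.10 ± 0.33 (adjusted p = 0.00101). The wild type gap, with lower values at 12 months, made up 61.5% of that difference. Sptlc3, a subunit of serine palmitoyltransferase in sphingolipid synthesis, turned direction: 366, 241 and 509 in tumours over 66.2, 85.7 and 70.0 in wild type lung, but 154, 81.7 and 242 in mutant under 268, 363 and 355 in wild type lung at 7 months. The early fall was not called (adjusted p = 0.0777), and the difference was 3.13 ± 0.45 (adjusted p = 0.00483). In Sptlc3 too wild type lung read lower at 12 months, and that gap made up 61.7% of the difference. Its second probe set, in a limma fit over all probe sets, had a tumour effect of 0.16 and an early effect of -0.16. The difference there was 0.32 and not called (adjusted p = 0.559). Glycam1, a mucin-like secreted protein, read 597, 326 and 575 in tumours and 1.92, 1.38 and 11.2 in wild type lung, and at 7 months 1.0 to 50.5 in mutant lung and 1 in every wild type lung. Its difference was 3.95 ± 0.59 (adjusted p = 0.00546), a call lost with a pseudocount of 1. Alox12e, Sult1c1 and Krt14 also had differences above 3 and lost the call without at least 4 of the 12 arrays in turn.

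These genes made up much of what was called in 4 lists. Of 22 genes of airway ion transport 3 were called higher (Kcne3, Atp6v1b1 and Slc4a4) and 2 lower (Slc26a4 and Slc5a1). Of 23 lipoxygenase and prostaglandin genes 2 were called higher (Alox15 and Alox12e) and 2 lower (Ltc4s and Ptger2). Secreted mucosal defence proteins were called higher in 2 of 23 cases (Glycam1 and Defb1) and lower in 1 (Chil1), while 16 of the 23 lay below 0 and the median difference was -0.80. Lung lineage and developmental factors were called higher in 2 of 30 cases (Six2 and Pax9) and lower in 1 (Irx3). Here 21 of the 30 lay below 0, the median difference was -0.43, and 19 had an unadjusted p under 0.05. Slc4a4, Slc26a4, Slc5a1, Alox12e, Ltc4s, Ptger2, Defb1, Chil1 and Irx3 lost the call without some single array.

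Smooth muscle and mesothelial lists held genes called higher, while cardiac muscle and vessel lists held few called differences. Myocd, the coactivator that drives smooth muscle genes, read 124, 142 and 156 in tumours and 84.5, 93.8 and 80.8 in wild type lung. At 7 months the order was turned, though not called, with 111, 123 and 134 in mutant and 154, 144 and 174 in wild type lung. The difference was 0.93 ± 0.14 (adjusted p = 0.00591). Its second probe set, in a limma fit over all probe sets, had an early effect of 0.16 and a difference of 0.14 (adjusted p = 0.86). Of 13 smooth muscle genes 3 were called higher and 0 lower. In all 3 the wild type gap, with lower values at 12 than at 7 months, made up more than 50% of the difference. In Myocd it made up 81.6%, and the tumours overlapped the 7-month wild type lungs. The other two, Smtn and Tagln, lost the call without some single array: the count was 1 without mutant 7-month array 1 or 3, wild type 12-month array 1 or 3 or wild type 7-month array 1 or 3, 5 without tumour array 1, and 6 without tumour array 2. In cardiac muscle genes, which pulmonary vein walls express in mice, 18 of 22 were called higher in tumours and 1 at 7 months (15% and 4.97% of all genes). The median difference was 1.13, yet limma called 0 of the 22 for it in either direction, with an unadjusted p under 0.05 in 17. Their summed intensity was 39019 to 45766 in tumours, 15154 to 22239 in wild type lung, and 14986 to 23303 and 11600 to 24776 in mutant and wild type lung at 7 months.

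Of 11 mesothelial genes 4 were called higher and 0 lower (1.75% and 1.41% of all genes), with a median difference of 0.12. In tumours against wild type 4 were called higher and 4 lower (15% and 12% of all genes). Msln, which encodes mesothelin, read 2868, 1643 and 3243 in tumours and 364, 218 and 406 in wild type lung. Its 7-month groups overlapped at 489.9 to 966 and 429.8 to 511, and the difference was 2.31 ± 0.41 (adjusted p = 0.0116). Upk1b read 1749, 1361 and 2148 and 922, 864 and 944 at 12 months, but 1847 to 2048 in mutant and 2172 to 2298 in wild type lung at 7 months. Its difference of 1.11 ± 0.18 (adjusted p = 0.00763) thus set a higher reading than wild type in tumours against a lower one, not called, in young mutant lung. No tumour read above the young wild type lungs. The remaining pair, Muc16 and Krt19, is also expressed by airway epithelium.

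Endothelial genes were called lower in tumours in 26 of 30 cases and in 0 at 7 months (12% and 0.572% of all genes), with a median tumour effect of -0.99 and early effect of -0.34. Even so the difference was called lower for 1 of the 30 and higher for 0, and its median was -0.66. That gene was Tie1, a receptor tyrosine kinase of endothelium (-0.90 ± 0.20, adjusted p = 0.0289), which lost the call without 5 of the 12 arrays in turn. Alveolar type 1 genes showed the same form, with 15 of 19 called lower in tumours, 0 at 7 months and 0 for the difference in either direction (median -0.74). The unadjusted p of the difference was under 0.05 in 18 of the 30 endothelial and 9 of the 19 type 1 genes. Most genes of both lists thus passed at 12 months and not at 7, without a called difference between these effects.

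Inflammatory cytokines and chemokines had a lower effect in tumours in 7 of 34 cases and a higher one in 0 (1.41% and 1.75% of all genes). Their median difference was -0.51. In all 7 the wild type gap made up more than 50% of the difference. These small secreted proteins recruit neutrophils and monocytes, and several are switched on by NF-kappa-B factors bound upstream of the gene. The 3 neighbouring neutrophil chemokine genes Cxcl1, Cxcl2 and Cxcl3 lie on chromosome 5, and the 250 bases upstream of each start are shown because all 3 hold the same kappa-B decamer, a binding form of these factors. The sequences are RefSeq's, on the plus strand of GRCm38.p6, with that decamer in capitals: Cxcl1 at chr5:90890995-90891244, Cxcl2 at chr5:90903649-90903898 and Cxcl3 at chr5:90785851-90786100.
Cxcl1: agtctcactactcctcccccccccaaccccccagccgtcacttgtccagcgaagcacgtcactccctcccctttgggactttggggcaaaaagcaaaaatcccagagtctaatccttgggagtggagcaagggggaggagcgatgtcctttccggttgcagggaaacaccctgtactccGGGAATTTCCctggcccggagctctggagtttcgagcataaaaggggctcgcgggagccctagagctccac
Cxcl2: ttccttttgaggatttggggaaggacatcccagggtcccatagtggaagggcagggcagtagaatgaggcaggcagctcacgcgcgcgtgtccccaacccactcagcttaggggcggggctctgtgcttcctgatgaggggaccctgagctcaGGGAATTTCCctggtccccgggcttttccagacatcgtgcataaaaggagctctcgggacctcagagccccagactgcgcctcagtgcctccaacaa
Cxcl3: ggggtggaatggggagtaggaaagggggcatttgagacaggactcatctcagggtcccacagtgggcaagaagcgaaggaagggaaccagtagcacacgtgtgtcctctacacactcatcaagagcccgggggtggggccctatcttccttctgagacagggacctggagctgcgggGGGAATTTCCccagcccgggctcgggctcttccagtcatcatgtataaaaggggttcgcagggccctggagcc

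The decamer begins 71, 97 and 73 bases before the start in Cxcl1, Cxcl2 and Cxcl3. Searched on both strands of the same 250 bases, it was found upstream of 18 of 14452 tested genes with a sequence (0.125%). Among genes called lower it was upstream of 2 of 202 (0.990%), Cxcl1 and Cxcl2, and among those called higher of 0 of 232. A second kappa-B decamer was upstream of 0.221% of all genes, of 2 of 232 called higher (0.862%) and of 2 of 202 called lower (0.990%). The ETS core GGAAGT was upstream of 24.4% of all genes, 22.0% of those called higher and 24.8% of those called lower. The motifs do not contain one another, and a match in these letters is no proof of a bound site.

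Cxcl1 read 98.7, 157 and 125 in tumours and 437, 523 and 324 in wild type lung at 12 months. In the younger set it read 157, 118 and 169 in mutant and 103, 129.6 and 144 in wild type lung. The 3 older wild type lungs stood above all other arrays, which overlapped, and the difference was -1.84 ± 0.27 (adjusted p = 0.00483) with all 3 probe sets below 0. Cxcl2 followed with 110.1, 75.9 and 86.2 in tumours and 385, 613 and 714 in wild type lung, against 35.2 to 117 and 47.2 to 98.7 at 7 months. Its difference was -2.21 ± 0.47 (adjusted p = 0.0262), lost without 4 of the 12 arrays in turn. Cxcl3 varied widely between like arrays, from 39.2 to 755 in wild type lung at 7 months, and its difference was not called (-2.70 ± 1.30, adjusted p = 0.287).

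Ccl3, a monocyte chemokine, read 107, 63.1 and 67.6 in tumours and 566, 801 and 1220.4 in wild type lung. At 7 months it was low in both groups, at 20.9, 15.8 and 51.3 and 23, 45.5 and 39.9. The tumours lay above the young lungs and far below the old wild type lungs, and the difference was -2.91 ± 0.46 (adjusted p = 0.00712). Ccl4, Il1a, Csf1 and Il33 were the remaining called members, and each lost the call without some single array. Ccl4 lost it without wild type 7-month array 1 or 3 and Il1a without wild type 12-month array 3 or wild type 7-month array 3, with adjusted p up to 0.0572 and 0.0559. The count of the list was 3 without wild type 12-month array 3 or wild type 7-month array 1 or 3. It was 6 without both arrays high in liver transcripts and 2 without both Xist-high arrays.

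**Figure D5:**
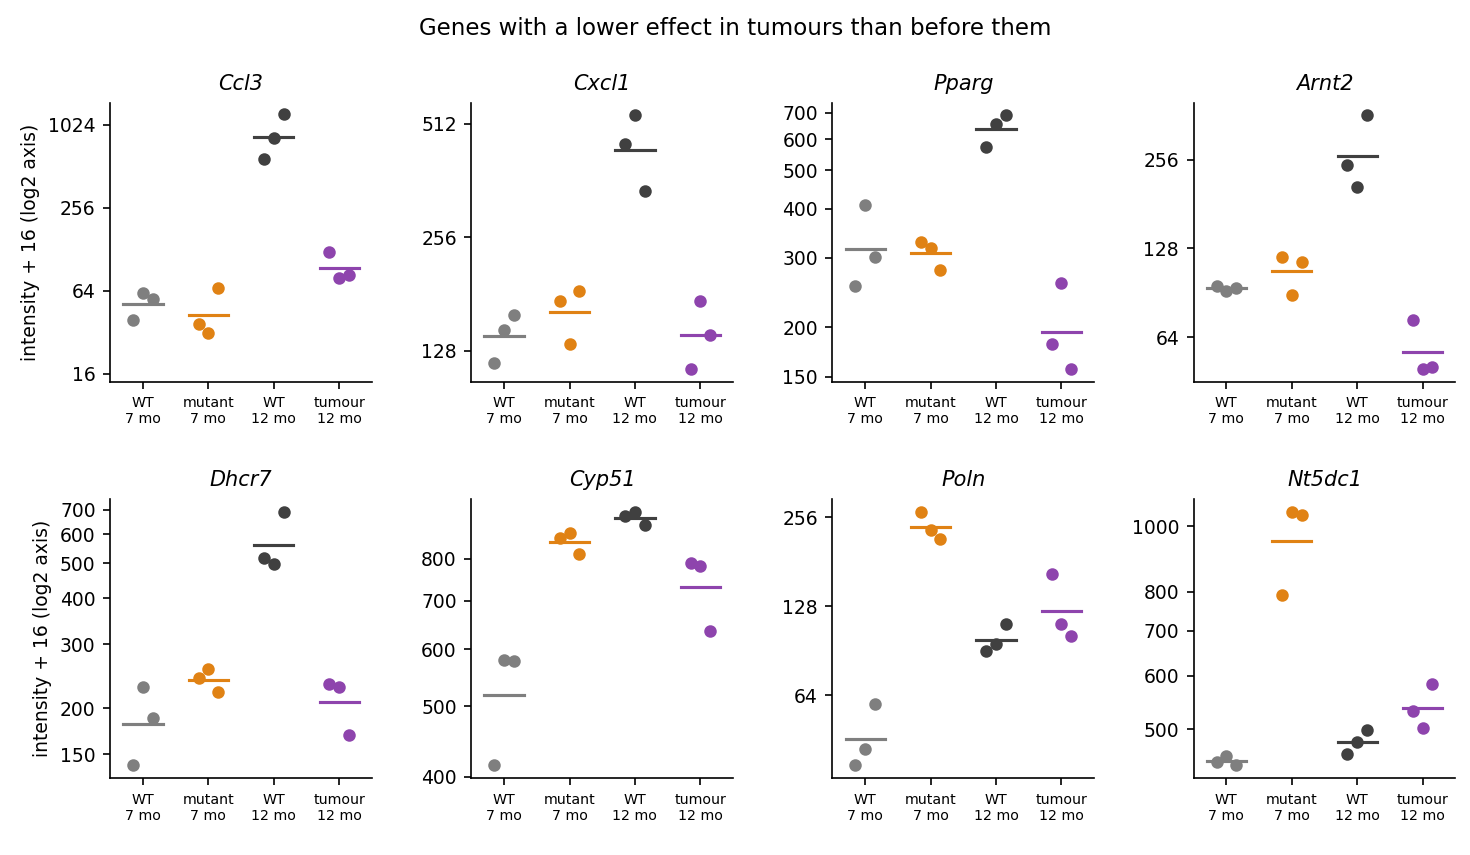
Intensity plus 16 (log2 axis, scaled for each gene) of 8 genes with a lower effect in tumours, with 1 point per array and a line at the mean of the log2 values of each group. In Ccl3, Cxcl1, Pparg, Arnt2, Dhcr7 and Cyp51 wild type lung at 12 months stands highest, while in Poln and Nt5dc1 the mutant lungs at 7 months do.

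Macrophage genes shared this form. Of 24 measured members 7 were called lower and 0 higher (1.41% and 1.75% of all genes), and the median difference was -1.12. The wild type gap exceeded 50% of the difference in 6 of the 7. Pparg read 165, 242 and 141 in tumours and 557, 639 and 673 in wild type lung at 12 months, against overlapping values of 263 to 313 in mutant and 238 to 392 in wild type lung at 7 months. The old wild type lungs stood above all other arrays and the tumours below their own wild type, with a difference of -1.68 ± 0.26 (adjusted p = 0.00669). Mertk, a receptor for the uptake of dying cells, had a difference of -1.02 ± 0.20 (adjusted p = 0.0176); without mutant 7-month array 1 the adjusted p was 0.051. Siglecf, Trem2, Olr1, Fabp5 and Adgre1 were called too and lost the call without at least 4 of the 12 arrays in turn. The second probe set of Trem2 lay above 0 (0.30, adjusted p = 0.406 in a limma fit over all probe sets). The count of the list was 2 without mutant 7-month array 1, 2 or 3, tumour array 3 or wild type 7-month array 1, 3 without wild type 12-month array 1 or 3 or wild type 7-month array 3, 4 without wild type 12-month array 2, and 11 without tumour array 2. It was 7 without both arrays high in liver transcripts and 0 without both Xist-high arrays. The summed intensity of the 24 genes was 98881 to 117767 in wild type lung at 12 months and lower elsewhere: 53026 to 72380 in tumours, 52822 to 65506 in mutant and 44288 to 68878 in wild type lung at 7 months. Its part in the chemokine differences was not tested. Of 13 neutrophil genes limma called 0 in either direction, with an unadjusted p under 0.05 in 3 and a median difference of 0.95.

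Sterol and fatty acid synthesis genes were called lower in 9 of 21 cases and higher in 0 (1.41% and 1.75% of all genes), with a median difference of -0.61. In the early effect 7 members were called higher and 0 lower (4.97% and 0.572% of all genes). In the tumour effect 2 were called higher and 7 lower (15% and 12% of all genes). Cyp51, the lanosterol demethylase, read 839.6, 853 and 795 in mutant and 399, 564 and 561 in wild type lung at 7 months. In the older set it read 774, 765 and 619 in tumours and 901, 913 and 873 in wild type lung. The direction turned between the ages with no overlap at either, though the fall in tumours was not called (adjusted p = 0.0701), and the difference was -1.02 ± 0.17 (adjusted p = 0.00869). Wild type lung itself read higher at 12 than at 7 months, and that gap made up 79.8% of the difference.

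Dhcr7, which catalyses the last step of cholesterol synthesis, read 217, 214 and 154 in tumours and 499.9, 481 and 675 in wild type lung. Its 7-month values overlapped, at 227, 240 and 206 in mutant and 124, 213 and 172 in wild type lung, and the difference was -1.83 ± 0.25 (adjusted p = 0.00381). Fdps, which makes farnesyl pyrophosphate, had a difference of -1.27 ± 0.23 (adjusted p = 0.0138), with its second probe set above 0. Sqle, Idi1, Fdft1, Insig1, Fasn and Fads1 were called too, at -0.91 to -0.54, and lost the call without at least 5 of the 12 arrays in turn. The count of the list was 3 without mutant 7-month array 1 or tumour array 3, 4 without mutant 7-month array 2 or wild type 7-month array 1, 5 without wild type 12-month array 1 or 3 or wild type 7-month array 3, and 14 without tumour array 2. It was 4 without both arrays high in liver transcripts and 1 without both Xist-high arrays. Alveolar type 2 cells make much of the lipid of the lung, and 3 of 20 of their genes were called lower (Muc1, Fasn and Il33) and 0 higher, with a median difference of -0.61. The alveolar type 2 count was 0 without mutant 7-month array 2, tumour array 3 or wild type 12-month array 3, 1 without mutant 7-month array 1 or 3, tumour array 1, wild type 12-month array 2 or wild type 7-month array 1 or 3, and 14 without tumour array 2. Their summed intensity was 109987, 139141 and 92066 in the 3 tumours and 129402 to 136376 in wild type lung at 12 months. In the younger set it was 129701 to 131964 in mutant and 109440 to 120587 in wild type lung, and its part in the sterol differences was not tested.

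Other large lower differences lay in genes of mixed function. Arnt2, a partner of bHLH-PAS transcription factors, read 56.9, 33.9 and 34.8 in tumours and 229.6, 191 and 346 in wild type lung, with overlapping 7-month groups at 73.3 to 103 and 75.6 to 79.3. Its difference was -2.41 ± 0.27 (adjusted p = 0.00152). In a limma fit over all probe sets its other probe sets had differences of -0.04 and -0.03 (adjusted p = 0.981 and 0.963). The mean of its 3 probe sets was not called. Slc1a2, a glutamate transporter, read 46.8, 29.9 and 21.5 in tumours and 418, 178 and 427 in wild type lung, against 119.8 to 142 and 134 to 238 at 7 months. All 5 of its probe sets lay below 0, from -2.42 to -0.19, and the difference on the one used was -2.42 ± 0.41 (adjusted p = 0.00996). Stra6l, a receptor for retinol-binding protein, and Proz, the vitamin K-dependent protein Z, had differences of -2.92 ± 0.56 and -2.68 ± 0.53 (adjusted p = 0.0164 and 0.019). The Proz call was lost in a fit of the 12 arrays alone. In both the older wild type lungs stood above all other arrays. Slc26a4, Slc39a2, Mcoln3 and Orm2 were also among the 12 largest lower differences, at -3.51 to -2.56, and lost the call without at least 2 of the 12 arrays in turn. Dus1l had a difference of -2.43 ± 0.38 (adjusted p = 0.0063) on 1 of its 2 probe sets, and of 0.0088 (adjusted p = 0.982) on the other.

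A count of 7 genes (0.0385%) was called in opposite directions at the 2 ages. In a limma fit over all probe sets, the same probe sets kept both calls for Asns and Acot12 only. Ankrd28, Eif4ebp1, Epor, Sec14l2 and Vangl2 there had an adjusted p of 0.0508 to 0.110 at 1 age or both. Asns, the asparagine synthetase, read 1409, 1398 and 1353 in tumours and 1172, 1017 and 923 in wild type lung at 12 months. In the younger set it read 1140.1, 1229 and 1149 in mutant and 1669, 1592 and 1614 in wild type lung. No groups overlapped at either age, and the rise in tumours (0.42, adjusted p = 0.00186) met an early fall (-0.47, adjusted p = 0.00398), with a difference of 0.88 ± 0.11 (adjusted p = 0.00306). Eif4ebp1, a repressor of cap-dependent translation, did the same: 1341, 1258 and 1273 in tumours over 1103, 1097 and 1041 in wild type lung, and 816, 929.7 and 960.5 in mutant under 1279.8, 1080.3 and 1164 in wild type lung. Its difference was 0.63 ± 0.11 (adjusted p = 0.0111); 2 of its 3 probe sets lay above 0, and the call was lost with their mean or without probe sets whose names end in _x_at. Ankrd28 rose in tumours and fell early by smaller amounts (difference 0.40 ± 0.08, adjusted p = 0.0229). That call was lost without mutant 7-month array 1, tumour array 3, wild type 7-month array 3 or wild type 12-month array 3. On its second probe set, in a limma fit over all probe sets, the early effect was 0.05 and the difference 0.13 (adjusted p = 0.777).

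The other 4 fell in tumours and rose early. Acot12, an acyl-CoA thioesterase, read 35.6, 37.3 and 39.5 in tumours and 58.5, 55.2 and 47.3 in wild type lung. At 7 months it read 49.6, 71.5 and 53.6 in mutant and 29.6, 40.1 and 37.5 in wild type lung, a difference of -0.89 ± 0.16 (adjusted p = 0.0124). In a limma fit over all probe sets its other probe sets had differences of -0.35 and -0.28, not called (adjusted p = 0.563 and 0.249). Their early effects were -0.03 and 0.24. Epor, the erythropoietin receptor, read 73.3, 77.3 and 66.0 in tumours and 90.7, 91.3 and 107 in wild type lung. Its 7-month values were 94.9, 94.3 and 102 and 66.5, 66.2 and 84.2, and the difference was -0.71 ± 0.13 (adjusted p = 0.0164). Vangl2, of the planar cell polarity pathway, and Sec14l2, a lipid transfer protein, had differences of -0.71 ± 0.12 and -0.64 ± 0.12 (adjusted p = 0.0105 and 0.0164). Groups of all 4 genes were apart at both ages. The call for Vangl2, with 1 of 3 probe sets above 0, was lost with their mean, and that for Sec14l2 without both arrays high in liver transcripts. The number of genes called in opposite directions was 2 without wild type 12-month array 1, 4 without wild type 12-month array 2 or mutant 7-month array 1 or 2, and 25 without tumour array 2.

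The difference was called for 28 genes that were called at 7 months and not in tumours, 24 lower and 4 higher. Poln, a DNA polymerase, read 252, 217 and 199.6 in mutant and 21.1, 26.1 and 44.1 in wild type lung at 7 months. In the older set tumours (148, 96.0 and 85.8) and wild type lung (74.7, 79.5 and 95.6) overlapped, and the difference was -2.07 ± 0.28 (adjusted p = 0.00361). Nt5dc1 read 773, 1036 and 1023 in mutant and 431, 440.3 and 426 in wild type lung, with tumours at 516, 486 and 567 and wild type lung at 443, 462 and 483 later (difference -0.92 ± 0.15, adjusted p = 0.00723). Its young mutant lungs were above every other array, and the wild type gap made up 10.1% of the difference. Adam28, a metalloprotease, read 125, 169 and 179.5 in mutant and 33.1, 34.0 and 52.3 in wild type lung, but 563 to 1189 in tumours and 814 to 936 in wild type lung at 12 months. Every 12-month array thus exceeded every 7-month array.

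Adam28 had a difference of -1.65 ± 0.32 (adjusted p = 0.0164); its second probe set lay above 0, and the call was lost with their mean and without both arrays high in liver transcripts. Mtr, the methionine synthase, turned the other way, reading 121, 168 and 136 in mutant under 239, 307 and 217 in wild type lung, with a difference of 1.13 ± 0.21 (adjusted p = 0.0144). Plet1 and Rragd, the latter a GTPase of amino acid sensing, had differences of -0.97 ± 0.19 and -0.96 ± 0.16 (adjusted p = 0.0164 and 0.00799). For Mtr and Rragd the probe sets disagreed in sign and their mean was not called. Slc46a3, AI506816 and Il33 belong here too and lost the call without at least 3 of the 12 arrays in turn.

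The 327 genes changed to a like degree at both ages included several with large effects. Aoc1, the diamine oxidase, read 1621, 1278 and 1169 in tumours and 244, 222 and 209 in wild type lung, and 957, 1076 and 879 and 127, 162 and 197 at 7 months. The groups stood apart at both ages by nearly the same amount: the difference was 0.01 ± 0.21, with a 95% interval of -0.44 to 0.47. Chek2, a DNA damage checkpoint kinase, had a tumour effect of 1.5 and an early effect of 1.54 (interval of the difference -0.40 to 0.32). Gsto1, a glutathione transferase, rose by 1.19 and 1.19 (interval -0.35 to 0.35). Diras2, a small GTPase, Acox2, a peroxisomal oxidase, and Tmprss4, a membrane serine protease, rose by 1.09 to 1.70 in tumours and by 1.17 to 1.71 early. Nme5 and Ropn1l, of cilia and flagella, rose by 1.22 and 1.25 in tumours and by 1.29 and 1.15 early. Among 23 genes of oxidative stress and glutathione, 15 were called higher in tumours and 10 at 7 months (15% and 4.97% of all genes). Of the 23, 5 were of like degree (1.80% of all genes). For the difference 1 was called higher and 0 lower (1.75% and 1.41% of all genes).

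A few further calls came from lists with few other called members. Oas2, an interferon-induced sensor of double-stranded RNA, read 984, 722 and 1318 in tumours and 175, 184 and 235 in wild type lung. Its younger lungs read 403 to 627 in mutant and 331 to 441 in wild type, and the difference was 1.81 ± 0.30 (adjusted p = 0.00869). F3, tissue factor, which starts the clotting cascade, read 4816, 3632 and 5288 in tumours and 1166, 1434 and 1046 in wild type lung, against 1999 to 2626 and 1700.4 to 1980.4 in the younger mutant and wild type lungs. The groups stood apart at both ages and the tumours above all other arrays. Its difference was 1.57 ± 0.21 (adjusted p = 0.00361). A pair of matrix genes went opposite ways: Dcn, the proteoglycan decorin, had a difference of 0.89 ± 0.17 (adjusted p = 0.0164, a call lost without both arrays high in liver transcripts) and Mfap4, a protein of elastic fibres, one of -1.73 ± 0.26 (adjusted p = 0.00535).

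Few growth and signalling genes were called for the difference. Of 34 cell cycle genes 1 was called higher and 0 lower, with a median difference of -0.12. That gene was the cyclin Ccnd2, at 3887, 3379 and 4476 in tumours and 2324, 2008 and 2149.6 in wild type lung and at 2636 to 2686 and 2381 to 2557 in mutant and wild type lung at 7 months. All 7 of its probe sets lay above 0, and the difference was 0.73 ± 0.13 (adjusted p = 0.0144). Counts of 1 higher and 0 lower were also found among 27 TGF-beta and activin genes (Fst), 24 BMP genes (Id4), 15 ETS factors (Spdef), 20 interferon response genes (Oas2), 21 immediate early genes (Nr4a2) and 20 genes of coagulation, fibrinogen and plasminogen (F3). Of 29 fibroblast and matrix genes 1 was called higher (Dcn) and 1 lower (Mfap4). Fst, Id4 and Nr4a2 lost the call without at least 6 of the 12 arrays in turn. Among 33 WNT genes, 15 ERK feedback genes, 20 T and NK cell genes and 24 genes of glycolysis and hypoxia limma called 0 in either direction, with an unadjusted p under 0.05 in 11, 3, 0 and 7. Of 17 ribosomal protein genes 0 were called, and 1 had an unadjusted p under 0.05. With 3 arrays per group, these counts do not show that the effects are alike: of simulated differences 27.3% were recovered at 1.5-fold, 63.9% at 2-fold and 93.5% at 4-fold. The simulation changed genes in the tumour group only, with noise independent between genes and of equal spread in all groups. Recovery in these arrays may differ.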

How the data were processed

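The deposited values are the authors' intensity values, 1 per probe set and array, on a linear scale from 0.48 to 17030. Their background correction, summary and scaling are not given in the sources used here. From them were taken log2(value + 16), 1 probe set per gene (1 symbol, highest mean over 15 arrays) and a limma 3.58.1 model of 5 groups (R 4.3.3), with 10 residual degrees of freedom. Adding 16 shrinks the changes of dim genes. Of 45101 probe sets 34958 had 1 gene symbol, 932 had several and were left out, and 9211, array controls included, were not named; 34741 were matched by gene ID to a RefSeq table (GRCm38.p6). Arrays give no counts, so their number limits the precision. The fit was tested on simulated data with 200 of 18193 genes changed, and made 12 false calls.

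Genes described array by array are Smad4, Erbb2, Elf3 and Errfi1. Others are the 12 largest called differences each way in genes with a group mean of at least 100. Up to 4 called members, by adjusted p, of each list with at least 3 were added, as were the genes called in opposite directions. The rest are the 10 largest differences called at 7 months alone and some of the genes changed to a like degree. The latter are from the 12 with the largest mean of both effects. Some other members of the lists are given beside them. The members and the 45 lists were chosen with earlier results of these data known. Alternatives were both other pseudocounts and scalings, other probe set rules, variance models, a filter on dim genes, a replicate block at 7 months, and left-out arrays. Tables and plots used Python 3.11.15, pandas 2.3.3, numpy 2.4.6 and matplotlib 3.10.9.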

Additional observations from a re-analysis of the deposited data

Results flagged for a closer look

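The test of the difference between the effects at both ages drew attention to 319 genes with a higher and 257 with a lower effect in tumours. Among them were 7 genes called in opposite directions: Acot12 (-0.89), Ankrd28 (0.40), Asns (0.88), Eif4ebp1 (0.63), Epor (-0.71), Sec14l2 (-0.64) and Vangl2 (-0.71), each value being the log2 difference of effects. Of the 28 called at 7 months and not in tumours, the 10 with the largest differences were AI506816 (1.07), Adam28 (-1.65), Cyp51 (-1.02), Il33 (-1.13), Mtr (1.13), Nt5dc1 (-0.92), Plet1 (-0.97), Poln (-2.07), Rragd (-0.96) and Slc46a3 (-1.08). Groups of 3 arrays are too small for a test of single outlying arrays.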

How the results depend on the processing

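Counts are given against main values of 319 higher, 257 lower, 327 of like degree and 7 opposite. Leaving out each of the 12 arrays in turn gave 162 to 857 higher, 108 to 973 lower, 146 to 400 of like degree and 2 to 25 opposite. With only the 12 arrays in the fit, and so fewer degrees of freedom, the counts were 158, 85, 179 and 3. Without both Xist-high wild type arrays they were 56, 15, 150 and 3, and without both liver-high arrays 184 were of like degree and 4 opposite. Lower genes numbered 164 with a pseudocount of 1, 387 with 64 and 425 with array weights. Opposite genes numbered 13 with array weights, 14 with median centring and 16 without dim genes. An interval within 1 on the log2 scale gave 637 genes of like degree. Apart from these and the replicate block below, the settings run kept these counts within 1.5-fold. The cause of these shifts was not tested.

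Replicate numbers at 7 months do not pair the arrays: the correlations of same-numbered deviations were -0.13, 0.02 and -0.08. With the replicate block at 7 months 149 genes were called lower. The 12-month labels carry no replicate numbers to block on. Most of them hold a number in brackets whose meaning is not stated, and none is shared between wild type and tumour arrays.

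Of 124 called genes under up to 25 settings each, 2281 results kept direction and call, 815 lost the call and 1 changed sign: Dus1l, at 0.0088 without _x_at probe sets. Of 1175 medians of lists, 76 moved by more than 1 SD between arrays. Dim genes and genes near the top of the scale have compressed folds, and 3 arrays per group leave small differences undetected.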

Other observations

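Asns and Eif4ebp1 are both targets of ATF4, the transcription factor of the amino acid response. Chosen for that, a list of 32 genes of that response and of amino acid synthesis was drawn up after the values of Asns, Eif4ebp1 and Cars had been seen. In it 14 were called higher and 0 lower (1.75% and 1.41% over all genes), and the median difference was 0.47. Without the 3 genes that prompted the list, 11 of 29 were called higher and 0 lower, with a median of 0.24. Slc7a5, the transporter of large neutral amino acids, read 408, 270.2 and 269 in tumours and 161, 100 and 118 in wild type lung. Its 7-month groups overlapped at 206 to 251 in mutant and 219 to 302 in wild type lung, and the difference was 1.41 ± 0.25 (adjusted p = 0.0124). Psat1, of serine synthesis, read 952, 756 and 1009 in tumours and 526, 451 and 468 in wild type lung. Its young lungs overlapped too (413 to 496 in mutant and 450.4 to 615 in wild type), with a difference of 1.08 ± 0.19 (adjusted p = 0.0101).

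Aldh18a1, of proline synthesis, had a difference of 1.02 ± 0.18 (adjusted p = 0.0111) with all 5 probe sets above 0, and lost the call without the _x_at probe sets. Cars, the cysteinyl-tRNA synthetase, had one of 0.73 ± 0.11 (adjusted p = 0.00484). Aars, Gars, Nars and Tars, 4 further tRNA synthetases, Mthfd2, Slc7a1, Chac1 and Nupr1 were called higher and lost the call without some single array. Other members were not called: the difference of Atf4 itself was 0.21 ± 0.11 (adjusted p = 0.339), that of Ddit3 0.00128 ± 0.17 (adjusted p = 0.997), that of Phgdh 0.07 ± 0.26 (adjusted p = 0.925) and that of Cth -0.50 ± 0.40 (adjusted p = 0.559). In 6 of the 14 the wild type gap exceeded 50% of the difference. The count was 6 without mutant 7-month array 1 or wild type 12-month array 3, 7 without tumour array 1 or wild type 7-month array 3, 8 without mutant 7-month array 2, and 9 without wild type 12-month array 1 or 2. It was 10 without both arrays high in liver transcripts and 2 without both Xist-high arrays.

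With 64 array control probe sets set apart, 3 of them called lower and 0 higher, 9160 probe sets had no gene name. Of these 53 were called higher and 34 lower for the difference in a limma fit over all probe sets.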
